A study of Mus musculus with 8 samples.

Results

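The olfactory receptor genes of mouse chromosome 7 were examined in 4 lists of H3K27me3 peaks from chondrocytes, the cells of cartilage. They were chosen by name and place alone, as protein-coding genes of the RefSeq table of GRCm38.p6 on chromosome 7 whose symbol begins with Olfr and a number. There were 239 of them among 1110 such receptor genes on all chromosomes and 21887 protein-coding genes in all. None of the 239 was marked in any of the 4 lists, where marked means that a called peak lay within 2 kb of either end of the gene.

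Olfactory receptors are G protein-coupled receptors that bind odorants on the cilia of olfactory sensory neurons, and each neuron expresses a single receptor allele. The genes stand in tandem clusters, most have their coding sequence in 1 exon, and the family is known to be silent outside the nose and a few other places. In the olfactory epithelium the silent receptor genes are known to be packed in constitutive heterochromatin with H3K9 and H4K20 methylation, whereas H3K27me3 is the mark of Polycomb repression, written by Ezh2 and removed by Utx and Jmjd3. The receptors fall into class I, the fish-like receptors that surround the beta-globin genes on chromosome 7, and class II, which make up the rest.

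There were 4 genotypes, with 1 ChIP library and 1 input library each: wild type and conditional knockouts (cKO) of Jmjd3, Utx or Ezh2, of which the labels spell the first and last Jmjd3-Cko and Ezh2-Cko. All were cultured chondrocytes from mouse cartilage, precipitated with the same antibody. The labels give no driver of the deletion, no strain and no age. Sample titles open with 1 number for wild type, another for Ezh2-cKO and a further one that Utx-cKO and Jmjd3-cKO share. Except between Utx-cKO and Jmjd3-cKO, what the number stands for and the genotype therefore cannot be told apart. ChIP depth after filtering ran from 25655346 to 34786292 fragments and input depth from 16599532 to 24041619. With 1 library per genotype no difference between genotypes has a replicate check and no p-value is given. A peak list gives no RNA level, so neither silence of the receptors nor the cell type can be read from it. The fixed chondrocyte markers, Sox9, Col2a1 and Acan among them, were marked in 10 of 10 cases in every list, where 62.3 to 67.7% of all genes were. The lists held 28057 peaks in wild type, 27013 in Jmjd3-cKO, 49405 in Utx-cKO and 33739 in Ezh2-cKO. The name H3K27me3 is used as the labels give it, and which mark the peaks show was not tested.

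The starts of 3 receptor genes and 2 marked neighbours are shown first, because receptor windows differ from those of most genes in their CpG. Each is the run of 250 bases before an annotated start, from the RefSeq promoter table of GRCm38.p6, 5′ to 3′, with every CpG in capitals. Olfr543 (chr7:102477903-102478152, minus strand) and Olfr522 (chr7:140162949-140163198, minus strand) are the receptor genes nearest to a peak among those whose window begins at the end of the gene. Olfr1350 (chr7:6569743-6569992, plus strand) is among the receptor genes with the most CpG, with 5. Trim21 (chr7:102565483-102565732, minus strand) and Trim68 (chr7:102687328-102687577, minus strand) are marked genes from within the largest receptor cluster, of a family of ubiquitin ligases with a RING finger.
Olfr543: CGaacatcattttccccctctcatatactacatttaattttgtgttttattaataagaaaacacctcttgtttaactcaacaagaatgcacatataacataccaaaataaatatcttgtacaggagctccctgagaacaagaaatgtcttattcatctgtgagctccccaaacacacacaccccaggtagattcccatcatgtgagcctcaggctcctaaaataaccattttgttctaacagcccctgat
Olfr522: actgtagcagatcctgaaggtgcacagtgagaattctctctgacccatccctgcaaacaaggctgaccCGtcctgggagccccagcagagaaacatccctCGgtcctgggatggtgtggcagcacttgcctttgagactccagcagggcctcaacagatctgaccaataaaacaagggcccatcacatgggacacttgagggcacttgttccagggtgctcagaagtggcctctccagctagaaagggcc
Olfr1350: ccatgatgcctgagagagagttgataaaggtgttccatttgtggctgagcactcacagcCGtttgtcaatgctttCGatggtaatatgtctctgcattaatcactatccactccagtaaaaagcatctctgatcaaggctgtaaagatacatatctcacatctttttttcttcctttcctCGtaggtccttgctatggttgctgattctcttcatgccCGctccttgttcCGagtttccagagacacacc
Trim21: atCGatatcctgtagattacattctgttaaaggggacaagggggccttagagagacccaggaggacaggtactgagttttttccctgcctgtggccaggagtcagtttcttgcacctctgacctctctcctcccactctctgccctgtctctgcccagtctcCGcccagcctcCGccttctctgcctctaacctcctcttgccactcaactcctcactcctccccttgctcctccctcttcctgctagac
Trim68: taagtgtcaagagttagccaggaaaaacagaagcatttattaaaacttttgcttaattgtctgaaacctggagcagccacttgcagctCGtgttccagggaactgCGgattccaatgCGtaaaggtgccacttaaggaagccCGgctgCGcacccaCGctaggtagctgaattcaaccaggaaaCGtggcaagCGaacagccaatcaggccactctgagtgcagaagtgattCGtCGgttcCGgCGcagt

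The share of receptor genes marked was 0 of 239 in wild type, 0 of 239 in Jmjd3-cKO, 0 of 239 in Utx-cKO and 0 of 239 in Ezh2-cKO. The 95% Wilson interval of each share reached 1.58%, and it treats as independent genes that are neighbours. Over all protein-coding genes the shares marked were 62.3% in wild type, 63.0% in Jmjd3-cKO, 67.7% in Utx-cKO and 64.5% in Ezh2-cKO. No distinct peak, width or rank could therefore be given for a chromosome 7 receptor gene. The other 1791 protein-coding genes of the same chromosome were marked in 58.3% of cases in wild type (interval 56.0 to 60.6%) and in 66.3% in Utx-cKO. The receptor genes are short, with a median length of 954 bp, and 182 of the 197 genes of up to 1100 bp have a length divisible by 3. Other protein-coding genes of up to 1100 bp, receptor families left out, were marked in 18.3% of cases in wild type (122 of 665), 17.4% in Jmjd3-cKO, 20.9% in Utx-cKO and 19.2% in Ezh2-cKO, against 0 of 197 short receptor genes in every list.

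**Figure D1:**
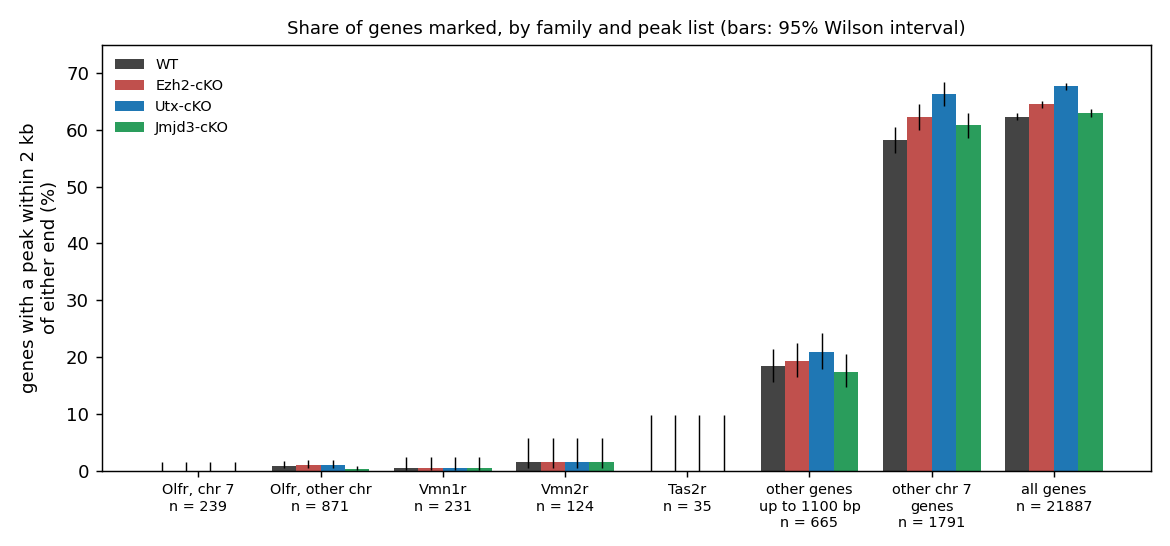
Share of genes with a peak within 2 kb of either end (y axis, %) for 8 gene groups (x axis) in the 4 peak lists (colours), with 95% Wilson intervals. The 239 receptor genes of chromosome 7 and the 35 Tas2r genes are at 0 in every list, and all protein-coding genes lie between 62.3 and 67.7%.

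Other chemoreceptor families were marked seldom too. Receptor genes of other chromosomes were marked in 7 of 871 cases in wild type (0.804%, 0.390 to 1.65%), 2 in Jmjd3-cKO, 8 in Utx-cKO and 8 in Ezh2-cKO, and these intervals overlap that of chromosome 7. Among the pheromone receptor genes of the vomeronasal organ, 1 of 231 Vmn1r genes and 2 of 124 Vmn2r genes were marked in each list. None of the 35 bitter taste receptor genes (Tas2r) was marked in any list. In all, 12 receptor genes of other chromosomes were marked in at least 1 list, with peaks of low rank: their median fold enrichment over input was 2.77 in wild type, at percentile 27.4 of that list, and 2.78 in Utx-cKO, at percentile 32.4. Of the 12, only Olfr94 on chromosome 17 was marked in all 4 lists, with fold enrichments of 4.01 in wild type, 3.69 in Jmjd3-cKO, 3.79 in Utx-cKO and 4.02 in Ezh2-cKO. By chromosome, none of the 130 receptor genes on chromosome 9 was marked in any list either, while of the 287 on chromosome 2 only Olfr1033 was marked, in wild type and Ezh2-cKO.

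The 55 receptor pseudogenes that the table lists on chromosome 7 were likewise unmarked in all 4 lists, with no peak within 5 kb. The nearest peak to any of them lay 5.09 kb from Olfr650-ps1 in Ezh2-cKO.

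The distance from a receptor gene to the nearest peak was large in each list. Its median was 290.2 kb in wild type, 289.5 kb in Jmjd3-cKO, 296.5 kb in Utx-cKO and 265.1 kb in Ezh2-cKO, whereas for the other chromosome 7 genes it was under 1 kb (0.181 kb in wild type). In wild type 191 of the 239 receptor genes (79.9%) lay over 100 kb from any peak, against 340 of the 1791 other chromosome 7 genes. Across all 4 lists, 177 receptor genes stayed over 100 kb away. The gene farthest from a peak was Olfr310, at 976.2 kb in wild type and 976.4 kb in Jmjd3-cKO, and at 839.6 kb in Ezh2-cKO and 840.2 kb in Utx-cKO. For a single gene the distance moved by a median of 32.3 kb between the nearest and the farthest of the 4 lists, and by under 1 kb for 90 genes.

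With wider windows, the receptor genes still gained peaks slowly. Within 10 kb a peak was found at 3 of 239 in wild type, 4 in Jmjd3-cKO, 3 in Utx-cKO and 4 in Ezh2-cKO. Within 50 kb the counts were 26 in wild type, 23 in Jmjd3-cKO and 28 in each of the others. The wild-type count is 10.9%, where 76.8% of the other chromosome 7 genes had a peak. Within 100 kb the wild-type shares were 20.1% on chromosome 7 and 28.9% for receptor genes elsewhere. Jmjd3-cKO came last of the 4 lists at 50 kb and stood above wild type at 100 kb (52 against 48 genes), so the lists keep no fixed order.

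**Figure D2:**
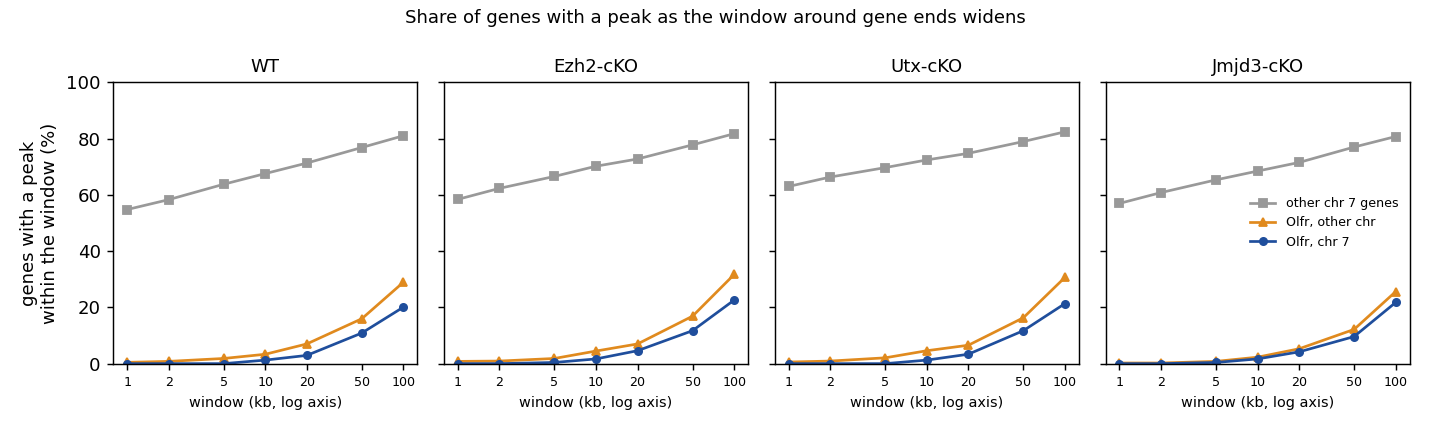
Share of genes with at least 1 peak within a window around either end (y axis, %) as the window widens from 1 to 100 kb (x axis, log scale), 1 panel per list, for chromosome 7 receptor genes, receptor genes of other chromosomes and the other genes of chromosome 7. Both receptor groups stay under 5% up to 10 kb in every list, and the other genes of chromosome 7 exceed 54% already at 1 kb.

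The genes just outside the 2 kb limit were few. Nearest was Olfr543 (GRCm38 chromosome 7, 102476773 to 102477902), at 3.60 kb from a Jmjd3-cKO peak of 286 bp and 3.74 kb from an Ezh2-cKO peak, with 33.8 kb in wild type and 33.1 kb in Utx-cKO. That Jmjd3-cKO peak had a fold enrichment of 2.59, at percentile 10.1 of its list, and the Ezh2-cKO peak one of 2.70, at percentile 33.3. It lies between Olfr543 and Rrm1, the gene for the large subunit of ribonucleotide reductase. With a window of 5 kb, Olfr543 would be the 1 receptor gene marked in Ezh2-cKO and in Jmjd3-cKO, with none in wild type or Utx-cKO. At that window 66.2% of all genes were marked in wild type, 66.6% in Jmjd3-cKO, 71.3% in Utx-cKO and 68.1% in Ezh2-cKO. Olfr550 followed at 5.62 kb in wild type and between 5.63 and 5.72 kb in the knockouts, in each list beside the peak at Trim21. Olfr522 lay 7.27 kb from a Utx-cKO peak at Sprn, a gene of the prion family, and 7.85 to 8.44 kb in the other lists. Olfr549 (9.60 kb in Utx-cKO) and Olfr557 (10.3 kb in Ezh2-cKO) lay next, beside the peaks at Trim21 and Trim68. The same neighbour thus gave the nearest peak for Olfr550, Olfr522, Olfr549 and Olfr557 in all 4 lists.

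Chained over gaps of up to 500 kb, the 239 genes formed 8 clusters. The largest, from Olfr543 to Olfr692 (102476773 to 105369317), held 126 genes over 2893 kb, 121 of them class I by their older family names and 5 not assigned. The others held 8, 2, 15, 2, 25, 42 and 19 genes in chromosomal order without it. Of the 110 class II genes and 123 class I genes none was marked in any list. The median wild-type distance to a peak was 280.6 kb in class I and 307.8 kb in class II, and the order was the opposite in Ezh2-cKO, with 293.2 and 224.2 kb, and in Jmjd3-cKO, with 296.4 and 293.0 kb. Neighbouring genes share their nearest peaks, so a single peak can shift such a median. The 25 genes from Olfr693 to Olfr716 had a median of 483.6 kb in wild type. It was 161.1 kb in Ezh2-cKO, with 1 peak among them. In 6 of the 8 clusters no peak of any list lay between the outermost receptor genes.

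The remaining peaks divided the receptor genes into a small number of peak-free stretches. In wild type all 239 lay in 11 such stretches of 51.1 to 2466 kb. There were 12 in Ezh2-cKO and 11 in each of the other knockouts. The stretch that follows the Trim68 peak held 79 receptor genes, from Olfr557 to Olfr649, in each list. It ended at the Trim6 peak in wild type and Utx-cKO, where it measured 1531 kb in both. It ended at Trim34a in Jmjd3-cKO (1557 kb) and at a peak near Olfr649 in Ezh2-cKO (1513 kb). The 42 genes from Olfr467 to Olfr519 stood in 1144 kb without a peak in wild type and 1176 kb in each knockout. The genes from Olfr693 to Olfr716 shared 1 stretch of 1559 kb in wild type, which a single Ezh2-cKO peak of 513 bp (107047928 to 107048440, fold enrichment 3.0) split between Olfr713 and Olfr714. The stretch around Olfr291 to Olfr292 reached 2466 kb in wild type and held 17 receptor genes beside 15 vomeronasal receptor genes. By length it ranked 7 among the stretches of the chromosome in wild type. The longest of all, 4141 kb in wild type, held no olfactory receptor gene but 86 vomeronasal ones.

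Within all clusters and their flanks, 7 of the 10 wild-type peaks stood within 2 kb of an end of a non-receptor gene. So did 6 of 9 in Jmjd3-cKO, 8 of 11 in Utx-cKO and 7 of 11 in Ezh2-cKO. With gene bodies counted too, the peaks left over 2 kb away were 1 in wild type, 2 in Jmjd3-cKO, 1 in Utx-cKO and 4 in Ezh2-cKO. Between the receptors of the largest cluster lie beta-globin genes, deubiquitinase genes (Usp17l), ubiquilin-like genes and 12 Trim genes, from a family with members in antiviral defence. Of the 30 non-receptor genes inside all clusters, 7 were marked in wild type, 7 in Jmjd3-cKO, 9 in Utx-cKO and 7 in Ezh2-cKO, which is 23.3% in wild type against the 62.3% of all genes. All but Gm38525, which shares its peak with Trim12c, were Trim genes. Trim21, an intracellular antibody receptor, had fold enrichments of 5.49 in wild type, 4.19 in Jmjd3-cKO, 8.22 in Utx-cKO and 6.30 in Ezh2-cKO. At Trim68 the folds were 6.04 in wild type, 6.35 in Jmjd3-cKO, 7.24 in Utx-cKO and 5.35 in Ezh2-cKO. The peak at Trim34a stood at percentile 85.0 of the wild-type list by fold (7.55), 86.8 in Jmjd3-cKO (10.4), 83.7 in Utx-cKO (7.67) and 74.5 in Ezh2-cKO (6.0). These folds are the authors' own values, which rank peaks within a list and are not compared between lists.

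Trim12a and Trim12c were marked in all 4 lists as well. Trim6 was marked in wild type, Ezh2-cKO and Utx-cKO, with folds of 2.47, 2.72 and 3.03, and its nearest Jmjd3-cKO peak lay 9.22 kb away. Trim30d was marked in Utx-cKO alone (3.38), by a peak at one end. Inside its body, past the 2 kb limit, a peak was also called in wild type (3.22), Jmjd3-cKO (4.77) and Utx-cKO (3.44). Trim30b was marked in Utx-cKO and Jmjd3-cKO through the peak it shares with Trim12c. In wild type and Ezh2-cKO that peak lay 2.05 and 2.02 kb from Trim30b, just past the limit. Trim5, Trim34b, Trim30c and Trim30a were marked in none, though a peak lay inside the body of Trim30a in wild type (2.88) and Utx-cKO (2.69). The Trim12 and Trim30 genes are close paralogs, so their values are uncertain where reads fit several copies. All 5 beta-globin genes, which include those for the adult and embryonic chains of haemoglobin, were unmarked in all lists, with wild-type distances from 365.7 kb at Hbb-y to 405.0 kb at Hbb-bt.

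**Figure D3:**
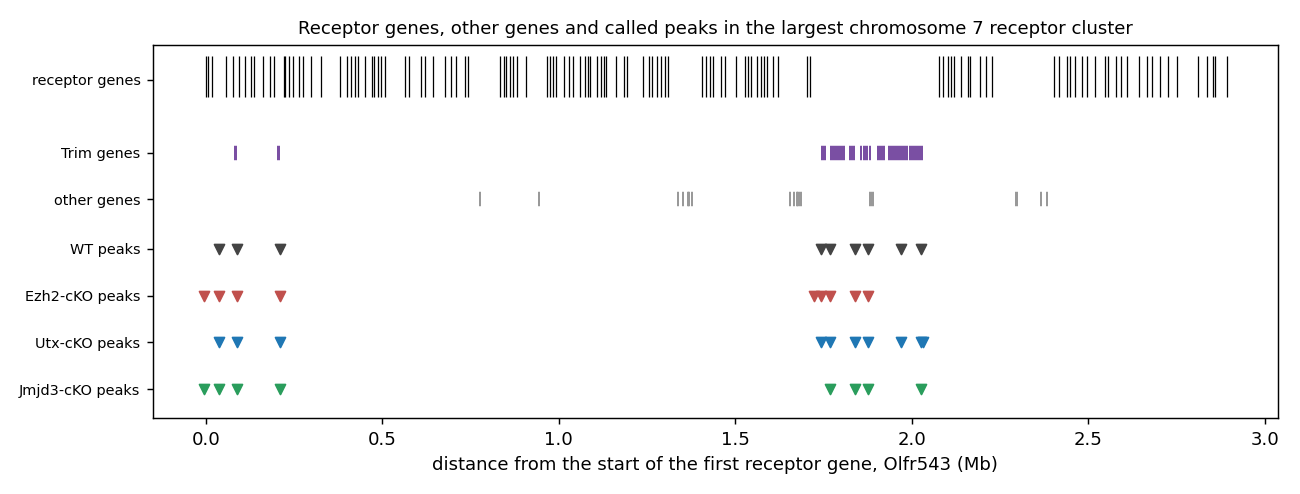
The largest receptor cluster drawn to scale (x axis, distance in Mb from the start of Olfr543), with the start of each of its 126 receptor genes as a tick, the Trim genes and other genes as blocks, and the called peaks of each list as triangles at their centres. Peaks sit near Trim21 and Trim68, in the Trim block and, in all 4 lists, at a place before Trim21 with no protein-coding gene. In Ezh2-cKO and Jmjd3-cKO a peak sits just before Olfr543, and in Ezh2-cKO alone another sits between Olfr649 and Trim6. The stretch of 79 receptor genes after Trim68 holds none in any list.

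The 14 regions with a peak in the 8 clusters, each cluster being extended by 10 kb on both sides, were compared between the lists. There were 7 in all 4 lists, 2 in 3 lists, 2 in 2 lists and 3 in 1 list. Of the 10 wild-type peaks, a Utx-cKO peak overlapped all 10, and peaks of Ezh2-cKO and of Jmjd3-cKO 8 each. In reverse, wild-type peaks overlapped 10 of 11, 8 of 11 and 8 of 9 of those lists' peaks. In the rest of chromosome 7 the shares of wild-type peaks overlapped were 90.6% in Utx-cKO, 83.2% in Ezh2-cKO and 78.6% in Jmjd3-cKO, and list length bears on them. With the lists cut to equal length, 8 of 9 wild-type cluster peaks were overlapped in Utx-cKO, 7 in Ezh2-cKO and 8 in Jmjd3-cKO, where the rest of the chromosome gave 82.3%, 80.0% and 80.6%. A region at 102512729 to 102514029 was called in all 4 lists with no protein-coding gene within 2 kb, at fold enrichments of 5.01 in wild type, 6.19 in Jmjd3-cKO, 6.03 in Utx-cKO and 5.14 in Ezh2-cKO. Its nearest receptor gene, Olfr545, lay 18.0 kb away, and the table lists one end of the pseudogene Gm8556 within it. Of the 3 regions of a single list, the Ezh2-cKO list held one 10.5 kb from Olfr649 and one 10.8 kb from Olfr713, with no protein-coding gene within 2 kb of either. The other was that at one end of Trim30d in Utx-cKO.

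Peaks were sparse in the clusters as a whole. The 5.80 Mb held 10 peaks in wild type, 9 in Jmjd3-cKO, 11 in Utx-cKO and 11 in Ezh2-cKO. This is 1.72 per Mb in wild type (exact 95% Poisson interval 0.827 to 3.17, for counting error only), against 13.6 per Mb (13.0 to 14.3) in the rest of chromosome 7. In Utx-cKO it was 1.90 per Mb (0.947 to 3.39) against 25.8 per Mb (25 to 26.7). The whole Utx-cKO list is longer, with 49405 peaks against 28057 in wild type. With 27013 peaks kept in each list, the clusters held 1.55 per Mb in wild type and 1.72 in Utx-cKO, and the rest of the chromosome 13.2 and 14.0 per Mb. Peaks covered 0.143% of the bases of the clusters in wild type and 0.181% in Utx-cKO, against 2.04% and 4.16% elsewhere on the chromosome. Away from the ends and bodies of all non-receptor genes by over 2 kb, and over the 5.25 Mb of the clusters that this leaves, they held 1 peak in wild type, or 0.190 per Mb (0.00482 to 1.06), and the rest of the chromosome 3.58 per Mb (3.17 to 4.03). The same values were 0.381 and 3.35 per Mb in Jmjd3-cKO, 0.190 and 9.42 in Utx-cKO, and 0.762 and 5.11 in Ezh2-cKO. The intervals of clusters and rest did not overlap in any list.

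**Figure D4:**
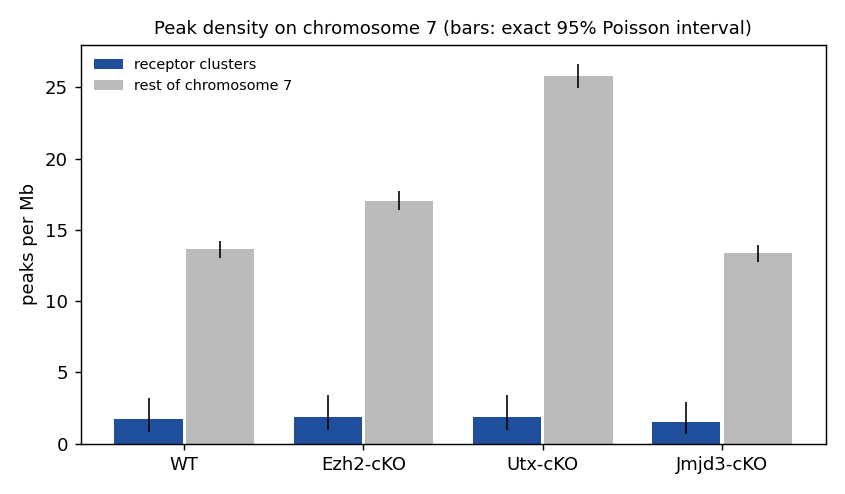
Peaks per Mb (y axis) in the 8 receptor clusters and in the rest of chromosome 7 for the 4 lists (x axis), with exact 95% Poisson intervals. The clusters lie between 1.55 and 1.90 in all lists, while the rest of the chromosome runs from 13.4 to 25.8.

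The edges of the clusters differed. The largest stands between Rrm1 and Fam160a2, both marked in all 4 lists, Fam160a2 at 1.89 kb from Olfr692 by gene ends but with its peak 29.2 kb away in wild type. Zfand6, Zim1, Neu3 and Sprn, each next to another cluster, were also marked in all 4 lists, and the other 10 flanking genes in none. Beyond the cluster of Olfr1344 to Olfr1350 the nearest following peak lay 122.2 kb away in wild type and 122.0 kb in Ezh2-cKO, but 14.0 kb in Utx-cKO and 15.9 kb in Jmjd3-cKO.

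The sequence at the receptor genes' starts was poor in CpG. RefSeq windows of 300 bases, from 250 before to 50 after the 5′-most listed start, were found for 209 of the 239. For 202 of them the start is the end of the gene model, and in 155 of these the first letters after it are ATG, so that the listed start may be the start codon and not the transcription start. The median number of CpG was 1 (range 0 to 6), against 13 over all 17492 protein-coding genes with a window and 21 over the other genes marked in all 4 lists. There was no CpG in 71 of the 209 receptor windows, against 5.21% of all windows, and the median GC content was 37.0% against 56.3%.

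The share of other genes marked, olfactory receptors left out, rose with the number of CpG in the window. In wild type it was 14.6% at 0 to 3 CpG, 37.7% at 4 to 7, 74.4% at 8 to 15 and 93.4% at 16 or more. Of the receptor genes 193 fell into the first class and 16 into the second, with 0 marked in both. In Utx-cKO the other genes of those 2 classes were marked in 19.9% and 49.4% of cases, and the receptor genes again in none. Trim68, with 12 CpG in the run printed above, and Trim21, with 3, were both marked in all 4 lists.

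**Figure D5:**
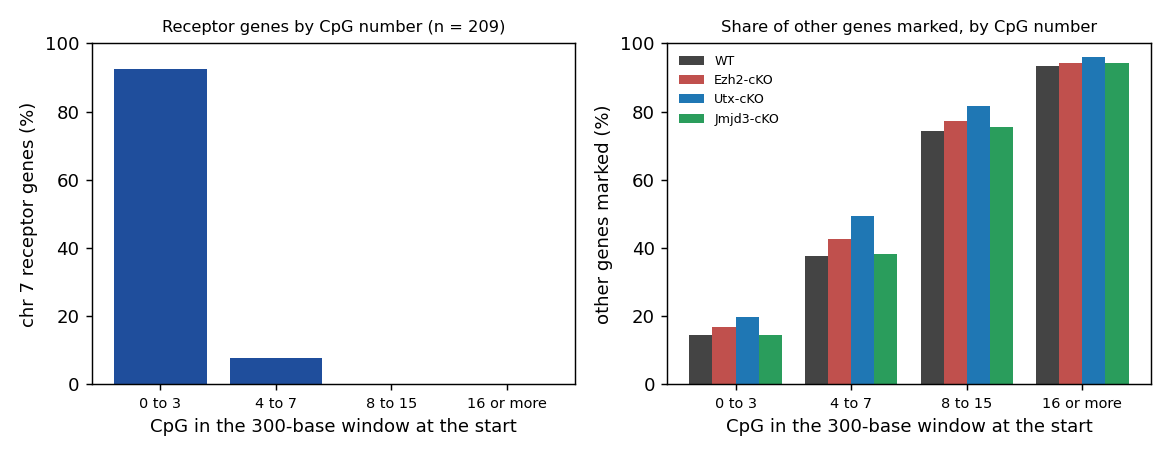
Left, share of the 209 receptor genes with a window (y axis, %) by the number of CpG in the 300 bases at the start (x axis). Right, share of other protein-coding genes marked (y axis, %) in the same classes for the 4 lists (colours). The receptor genes fall into the 2 lowest classes, at 92.3% and 7.66%, where the other genes were marked in 14.6% and 37.7% of cases in wild type.

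Other letters of these windows were counted on both strands, as a description. TATAAA was in 42.6% of the receptor windows, against 13.3% of all windows of the same length, which are richer in GC. It was in 40.7% of the windows of receptor genes elsewhere and 25.6% of those of other genes marked in no list. TAATTA, the core bound by homeodomain factors such as Lhx2, was in 13.4% against 4.69% of all, 20.1% at receptor genes elsewhere and 9.27% at other genes marked in no list. Here matches of both may overlap in the letters TA. The palindromic Olf/EBF site was in 1 window (0.478%) against 0.920%. For 185 of the 209 windows no stretch of 50 bases recurred in the window of another protein-coding gene, and for 2 every such stretch did. How reads that fit several receptor genes were treated is not given in the sources used here, so the part of copied sequence in the absence of peaks was not tested.

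Genes of the olfactory pathway that are no receptors were marked in wild type at a share near that of all genes. Of 22 such genes, 15 were marked in wild type (68.2%), 15 in Jmjd3-cKO, 18 in Utx-cKO (81.8%) and 16 in Ezh2-cKO, beside the 62.3% of all genes in wild type and 67.7% in Utx-cKO. Those marked in all 4 lists included regulators of receptor choice, with wild-type folds of 8.73 at Lhx2, 16.1 at the demethylase gene Kdm1a and 5.36 at Ebf1, and signalling genes, with 7.67 at the adenylyl cyclase gene Adcy3 and 6.44 at the channel gene Cnga4. Cnga4 lies beside the largest receptor cluster and shares its region with Fam160a2. The receptor transport genes Rtp1 and Rtp2 and the channel genes Cnga2 and Cngb1 were marked in none. Omp, the marker of mature olfactory neurons, was marked in Utx-cKO alone with a fold of 3.11, its wild-type peak lying 2.45 kb away. Ano2 was also marked in Utx-cKO alone (3.08), with its nearest wild-type peak 122.5 kb away. Ldb1 was marked in Utx-cKO and Ezh2-cKO. In wild type and Jmjd3-cKO its nearest peak lay 2.01 kb away, just past the limit of 2 kb.

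Between wild type and each knockout, 0 receptor genes of chromosome 7 were marked in both lists, 0 in the knockout alone and 0 in wild type alone. Over all genes, those marked in a knockout with no wild-type peak within 5 kb were 1.59% in Jmjd3-cKO, 4.18% in Utx-cKO and 2.19% in Ezh2-cKO. These comparisons share the wild-type library. A gene below the threshold in every list can still differ in the mark, which a list of called peaks does not show.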

How the data were processed

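H3K27me3 ChIP and input libraries of 4 genotypes were used, 1 of each per genotype. MACS 2.1.2 was run by the authors on paired-end data, per the file headers, each ChIP library on its own against its input and without pooling. The headers give a q-value threshold of 0.05, a broad cutoff of 0.05 and no more than 1 duplicate kept per position. Other tools named in the submitters' processing notes are FastQC 0.11.5, Bowtie2, HOMER 4.10, deepTools 2.4.1 and ChIPseeker. Neither the build nor the version of Bowtie2 is given in the sources used here. For every peak the deposited lists hold a fold enrichment (a ratio over local input), −log10 p and −log10 q, and a length. They also hold the pileup, a coverage signal of the authors that was not used.

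Gene positions are those of RefSeq on GRCm38.p6. Placed on them, the wild-type peaks marked 1044 of 1791 other chromosome 7 genes, against 469 and 474 when genes were moved by 20 kb forward or back. The gene table has no strand or exons, so both gene ends were used, and receptor class was read from synonyms, where MOR families up to 42 are class I and those from 101 are class II. Clusters join receptor genes over gaps of up to 500 kb. Named genes are the 5 receptor genes nearest a peak (Olfr543, Olfr550, Olfr522, Olfr549 and Olfr557), the pathway and beta-globin lists, and up to 6 marked genes inside the clusters. Other genes named were chosen after their values were seen. The receptor genes and all lists were chosen with earlier results of these data known. CpG classes, wider windows and the length limit of 1100 bp were chosen after seeing the data.

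With 1 library per genotype no test was made. Intervals are 95% and cover counting error only. The script that marks genes was tested on simulated data, where it searched 21887 genes and found 150 of the 150 placed beside a peak. Scripts ran under Python 3.11.15 with scipy 1.17.1, pandas 2.3.3, numpy 2.4.6 and, for plots, matplotlib 3.10.9.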

Additional observations from a re-analysis of the deposited data

How the results depend on the processing

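The absence of marked receptor genes on chromosome 7 held in all 4 lists with peaks of −log10 q of 3 or more, with fold enrichment of 4 or more, with the 27013 strongest peaks of each list, with peaks within 3 kb merged, with a window of 1 kb, with the gene body included, with peaks at other genes left out and, as an alternative added after seeing the data, with the 5′-most start alone (209 genes). With fewer peaks or the narrower window no other outcome was possible. The same holds for merging, since no point in a bridged gap of 3 kb lies over 2 kb from a peak. Only the gene body and the start alone could have given another count. The gene body could do so only in genes with bases over 2 kb from both ends. The start was already an end of the gene model for 202 of the 209 genes. A window of 5 kb gave 1 receptor gene and 1 distinct peak in Ezh2-cKO and in Jmjd3-cKO, so the difference from wild type became 1 in both, and stayed 0 in Utx-cKO. Peak density in the clusters fell to 0.517 per Mb in wild type, Utx-cKO and Jmjd3-cKO and to 0.690 in Ezh2-cKO when peaks within 2 kb of the ends of other genes were left out, by construction, still over all 5.80 Mb and with peaks inside gene bodies kept. With fold enrichment of 4 or more it was 1.03 in wild type, Utx-cKO and Ezh2-cKO and 1.21 in Jmjd3-cKO. Jmjd3-cKO then stood highest and not lowest, but with only 7 peaks against 6 in each other list. Rank, width and overlap of peaks at receptor genes have no value, since there were none. No paired analysis was possible because each genotype has 1 library. The lists hold called peaks only, so enrichment below the threshold, and any change in it, cannot be seen at this depth.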
